A study of Mus musculus with 6 samples.

Results

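The genes described here are 10 receptor and feedback genes of fibroblast growth factor (FGF) signalling, chosen by name. They are the receptors Fgfr1, Fgfr2 and Fgfr3, the Sprouty inhibitors Spry1, Spry2 and Spry4, the phosphatase gene Dusp6, and the transcription factor genes Etv1, Etv4 and Etv5. All 10 were among the 17068 genes of the count table and were found there by their Ensembl identifiers. Bulk RNA-Seq was carried out on lateral cortex of female c57/bl6 embryos at E12.5. There were 4 controls, all negative for Cre, of which controls 1, 2 and 4 were Foxp1 fl/+ and control 3 was Foxp1 fl/fl. The other 2 libraries were labelled Foxp1cKO, with the genotype Foxp1 fl/fl;Emx1Cre. All 6 libraries thus carried at least 1 floxed Foxp1 allele. Emx1Cre acts in progenitors of the dorsal telencephalon and their progeny, and the vessels, meninges and blood in the dissected tissue are outside its lineage.

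FGF ligands bind receptor tyrosine kinases at the cell surface, and the activated receptors signal through RAS, RAF and MEK to the kinase ERK. ERK signalling raises transcription of its own inhibitors. Sprouty proteins act upstream of ERK, and Dusp6 removes phosphate from ERK itself in the cytoplasm. The PEA3 group of ETS factors, Etv1, Etv4 and Etv5, is induced by the same pathway, so that transcripts of these genes are widely read as a record of FGF activity. In the early telencephalon FGFs from the rostral midline pattern the cortex, and the 3 receptors are expressed in ventricular zone progenitors.

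The count totals of the libraries ran from 50076008 to 78346979. Values are given as CPM, which are counts scaled to a common library size with TMM factors. Foxp1 was checked first. Control levels ranged from 59.7 to 79.1 CPM, and the libraries labelled Foxp1cKO 1 and 2 reached 83.2 and 76.8 CPM. Foxp1 was therefore not lower under the mutant label (log2 fold change 0.24 ± 0.129 SE, adjusted p = 0.468, edgeR), and every direction below rests on the labels. A count over the whole gene cannot tell floxed exons apart from the rest. The Foxp1 model is also long, at 597 kb, and genes over 500 kb had a median log2 fold change of 0.24, as described below. The cortical identity genes Emx1, Emx2 and Lhx2 were present in every library. Emx1 had 68.8 to 135 CPM in the controls and 98.4 and 116 CPM in the libraries labelled Foxp1cKO, and Lhx2 had 257 to 614 CPM and 459 and 392 CPM.

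Control 2 stood apart in Fgf17, a ligand of the rostral patterning centre, with 7.77 CPM against 0.339 to 0.521 CPM in the other controls and 0.369 and 0.556 CPM in the libraries labelled Foxp1cKO. It was also the control with the highest Wnt8b, a gene of the medial cortex, at 8.66 CPM. Other rostral and medial markers were mixed. Sp8 had 26.1 CPM in control 2 and 30.9 CPM in control 4, and Lmx1a had 0.644 and 2.79 CPM. Wnt2b was highest in control 1 at 0.662 CPM, and Rspo2 in control 2 at 1.69 CPM. Of the caudal patterning genes, Nr2f2 ranged among the controls from 18.9 CPM (control 4) to 94.3 CPM (control 3). Control 2 lay within that range at 73.4 CPM. For Nr2f1 it also lay inside the control range, at 326 CPM between 250 CPM (control 4) and 401 CPM (control 3). The libraries labelled Foxp1cKO 1 and 2 were far apart in Nr2f2, at 135 against 27.4 CPM, and the cause was not tested. Control 3 stood apart in Nkx2-1, a gene of the ventral telencephalon, with 13.2 CPM against at most 1.07 CPM elsewhere. Its summed ventral markers reached 620 CPM against 202 to 310 CPM in the other controls. The same sums were 430 and 312 CPM in the libraries labelled Foxp1cKO 1 and 2, below control 3 and above every other control. The 4 red cell genes summed to 914 to 2724 CPM in the controls and to 2907 and 3223 CPM in the libraries labelled Foxp1cKO. The 4 mural cell genes summed to 52.6 to 66.8 CPM in the controls and to 85.7 and 88.2 CPM in the others, and every gene of both lists was detected in every library. In bulk tissue, a lower number of cells of a type and less RNA per cell cannot be told apart.

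The 3 receptors were the most abundant members and the feedback genes lay well below them. Levels were compared between genes per kilobase of exon (RPKM, mean ± SD over the 4 controls). Fgfr3 had 34.5 ± 7.78 RPKM, Fgfr2 19.1 ± 0.973 RPKM and Fgfr1 16.3 ± 1.28 RPKM, and at each of these 3 steps down to the next gene the controls did not overlap. Among the feedback genes Etv5 was highest, with 6.34 ± 2.69 RPKM. Dusp6 had 4.62 ± 1.15 RPKM, Spry2 3.77 ± 0.606 RPKM, Etv1 2.45 ± 1.08 RPKM and Spry1 2.35 ± 1.28 RPKM. Etv4 and Spry4 were the lowest, with 0.835 ± 0.511 and 0.588 ± 0.107 RPKM. From Etv5 down to Spry4 every neighbour in this order overlapped with the next in the controls. With the longest transcript as the length, Fgfr3 and Fgfr2 overlapped as well (58.1 ± 13.1 and 44.5 ± 2.27 RPKM), and Etv1 and Spry2 changed places. These levels may include reads in introns, as described with Fgfr2.

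**Figure D1:**
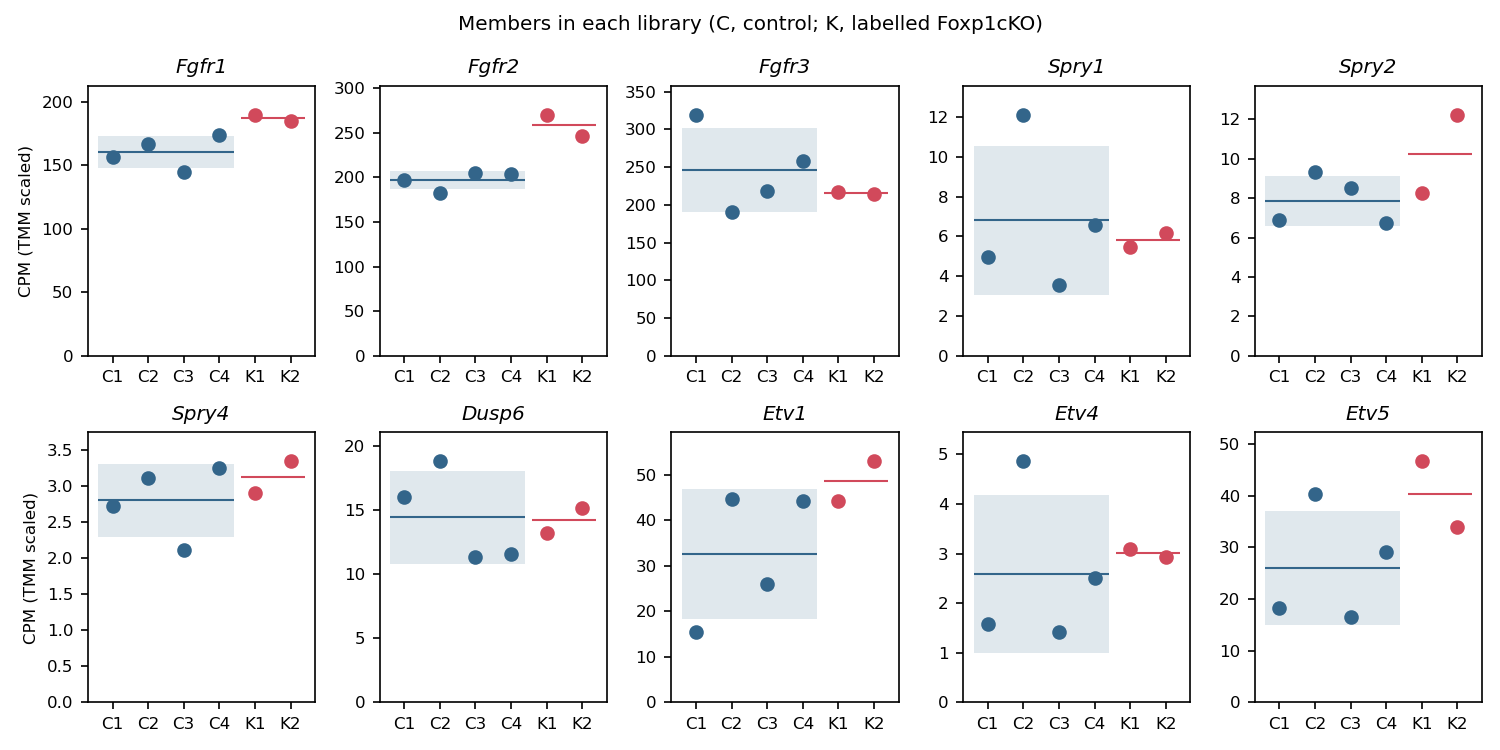
CPM of the 10 members in each library, with controls 1 to 4 (C) in blue and the libraries labelled Foxp1cKO 1 and 2 (K) in red. Horizontal lines are group means, the blue band is ± 1 SD of the controls, and each vertical axis starts at 0. Both red points lie above every control for Fgfr1 and Fgfr2 only.

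The promoters of the members were read for short motifs. The RefSeq table (GRCm38.p6) held 10 windows for 7 members, Fgfr2, Fgfr3, Spry1, Spry2, Dusp6, Etv1 and Etv5, and the 250 bases before each transcript start were searched on both strands. CCGGAA, a core that ETS factors bind, was in 0 of the 10 windows and in 12.03% of all 32851 windows. GTAAACA, a forkhead motif of the kind Foxp1 binds, was in 1 of the 10, upstream of Etv5, and in 3.17% of all windows. ACGTG, the core of the hypoxia response element, was in the same Etv5 window, 133 bases before the start, and in 16.6% of all windows. The forkhead match lies 183 bases before the start and does not overlap it. These distances are from the RefSeq start, and the GENCODE model of Etv5 begins further upstream, at 22439719. The ACGTG match thus falls inside that model and the forkhead match lies upstream of it. The Etv5 bases are shown since its window holds both matches (capitals). Those of Dusp6 and Spry1 are shown for comparison, as feedback inhibitors whose windows hold none of the 3 motifs searched for. Each sequence runs from 5′ to 3′ on the gene's strand and ends at the base before the start. Etv5 is at chr16:22439571-22439820 on the minus strand, Dusp6 at chr10:99262981-99263230 on the plus strand, and Spry1 at chr3:37639697-37639946 on the plus strand.
Etv5: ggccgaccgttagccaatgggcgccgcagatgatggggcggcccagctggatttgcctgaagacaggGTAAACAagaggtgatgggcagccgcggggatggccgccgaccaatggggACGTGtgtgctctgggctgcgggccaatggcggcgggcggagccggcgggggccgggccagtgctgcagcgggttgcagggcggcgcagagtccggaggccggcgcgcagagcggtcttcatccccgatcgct
Dusp6: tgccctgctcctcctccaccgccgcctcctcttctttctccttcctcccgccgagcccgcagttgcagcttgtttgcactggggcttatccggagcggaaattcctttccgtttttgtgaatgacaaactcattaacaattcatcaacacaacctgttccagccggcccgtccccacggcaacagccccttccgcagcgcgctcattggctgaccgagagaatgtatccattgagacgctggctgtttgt
Spry1: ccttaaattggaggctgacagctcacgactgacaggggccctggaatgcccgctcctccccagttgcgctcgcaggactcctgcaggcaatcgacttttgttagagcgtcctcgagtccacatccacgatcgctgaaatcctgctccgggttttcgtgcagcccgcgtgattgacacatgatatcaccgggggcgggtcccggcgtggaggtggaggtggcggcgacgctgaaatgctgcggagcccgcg

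Between the groups, no member passed the threshold of 0.05 on the adjusted p-value in edgeR's quasi-likelihood test (0 of 10), where 0.152% of all genes were called. At an unadjusted p under 0.05 the test gave 2 of 10 members, Fgfr1 and Fgfr2, against 13.0% of all genes. DESeq2, run as an alternative, called 1 of 10, Fgfr2, against 3.36% of all genes it tested, and limma called 0. The median log2 fold change of the 10 members was 0.22, beside a median of -0.0044 over all genes, and 7 of the 10 had a positive value. Both libraries labelled Foxp1cKO lay above all controls for 2 members, against 11.5% of all genes, and below all controls for 0 members, against 13.1% of all genes.

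Fgfr2, which encodes a receptor for several FGFs, was the member with the smallest p-value in both tools. Its fitted value fell from 0.39 to 0.12 (adjusted p = 0.79, edgeR) when genes were centred by length, an alternative chosen after seeing the data. That fit placed Fgfr2 in the class over 500 kb by its GENCODE model, while its RefSeq start would give 100 to 200 kb. Fgfr2 had 198, 183, 205 and 203 CPM in controls 1 to 4, and 270 and 247 CPM in the libraries labelled Foxp1cKO 1 and 2. The controls lay close together and both labelled mutants were above all of them. The log2 fold change was 0.39 ± 0.080 SE (95% interval 0.20 to 0.58), with an unadjusted p of 0.00171 and an adjusted p of 0.225 from edgeR over all genes. DESeq2 gave 0.39 ± 0.095 SE with an adjusted p of 0.00343. That call was lost without control 1 (adjusted p = 0.0594, DESeq2) and without the library labelled Foxp1cKO 1 (adjusted p = 0.38, DESeq2), and was kept with each of the other 4 libraries left out.

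How reads were counted bears on the Fgfr2 value. Protein-coding genes that lie wholly inside another protein-coding gene on the same strand were in the table in 3 of 385 cases (0.779%), against 248 of 541 (45.8%) inside a gene on the other strand and 66.5% of the rest. Such a pattern arises where reads over the whole gene, introns included, are counted with regard to strand, but the feature that the authors counted on is not given in the sources used here. In GENCODE M21 the Fgfr2 model (ENSMUSG00000030849.18) covers chr7:130162451-133123350 on the minus strand, 2961 kb in all, because 1 transcript has exons far upstream. Of 14 protein-coding genes that overlap this span on the same strand 1 was in the table, and of 16 on the other strand 10 were. The authors used another annotation release, and how much of the Fgfr2 count comes from sequence outside its usual transcripts was not tested.

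Fgfr1 (ENSMUSG00000031565.18, chr8:25513654-25575718, plus strand), the receptor expressed most broadly in the embryo, had 156, 166, 145 and 174 CPM in controls 1 to 4 and 189 and 185 CPM in the libraries labelled Foxp1cKO. Both labelled mutants were above the highest control, by a small margin over control 4. Positions of genes are those of GENCODE M21 (GRCm38). The log2 fold change was 0.22 ± 0.089 SE (95% interval 0.01 to 0.43), with an unadjusted p of 0.0409 and an adjusted p of 0.368 in edgeR and of 0.248 in DESeq2. DESeq2 called Fgfr1 when control 4 was left out (adjusted p = 0.0467) and not in the other 5 such fits. Mural cell and red cell sums were also higher in both of these libraries than in every control, as given above, and their part in the receptor values was not tested. Within those lists Pdgfrb, Kcnj8 and Hbb-bt overlapped between the groups. Endothelial sums were 142 and 174 CPM in these libraries and 113 to 176 CPM in the controls. Sums for meninges and mesenchyme were 129 and 279 CPM, and 76.1 to 449 CPM in the controls.

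Fgfr3 (ENSMUSG00000054252.17, chr5:33721674-33737068, plus strand), a receptor most abundant in caudal and lateral cortical progenitors, had 319, 191, 218 and 258 CPM in controls 1 to 4 and 216 and 215 CPM in the libraries labelled Foxp1cKO. Both labelled mutants fell between controls 2 and 3, and control 1 was the highest of all. The log2 fold change was -0.19 ± 0.194 SE (95% interval -0.65 to 0.26, adjusted p = 0.699, edgeR). G630022F23Rik, annotated on the other strand, shares 998 bases of exon with Fgfr3 and averaged 200.5 counts, far fewer than Fgfr3.

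**Figure D2:**
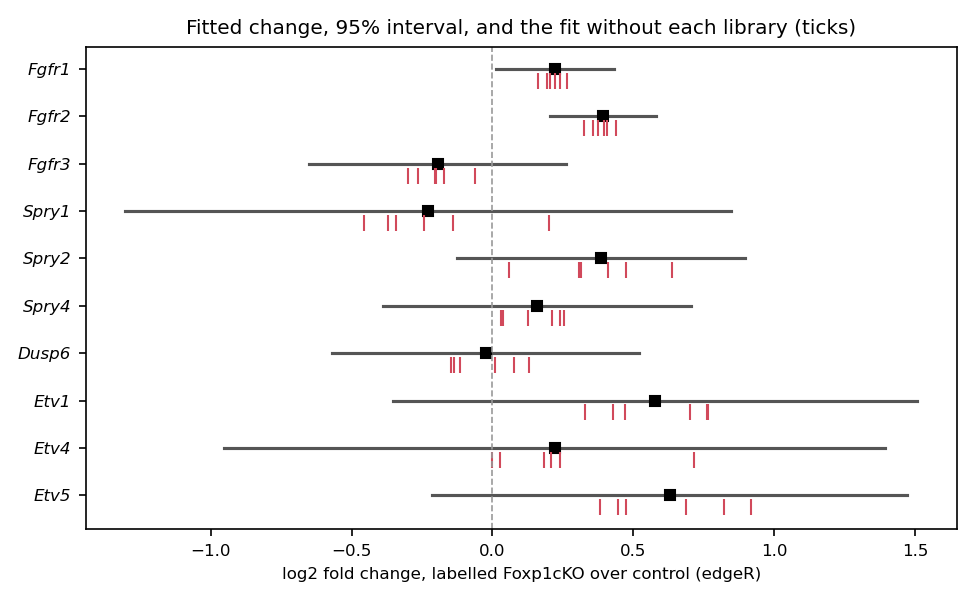
Fitted log2 fold change of each member, libraries labelled Foxp1cKO over controls (black square), with the 95% interval of edgeR's fit (grey line). Red ticks give the value with each of the 6 libraries left out in turn. The intervals of Fgfr1 and Fgfr2 are narrow and lie above 0, and those of Spry1 and the 3 Etv genes are wide and span it.

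No Sprouty gene passed the test between the groups. Spry1 (ENSMUSG00000037211.12, chr3:37639947-37644598, plus strand) had 4.99, 12.1, 3.58 and 6.59 CPM in controls 1 to 4, and 5.44 and 6.18 CPM in the libraries labelled Foxp1cKO. The labelled mutants sat in the middle of the controls, whose highest was 3.38 times the lowest. The log2 fold change was -0.23 ± 0.456 SE (95% interval -1.30 to 0.85, adjusted p = 0.866, edgeR), and without control 2 it was 0.20. Gm42922 on the other strand shares 710 bases of exon with Spry1 and averaged 14.7 counts. Spry2 (ENSMUSG00000022114.5, chr14:105891947-105896819, minus strand) had 6.89, 9.32, 8.52 and 6.72 CPM in the controls, and 8.29 and 12.2 CPM in the libraries labelled Foxp1cKO. Only the library labelled Foxp1cKO 2 lay above the controls, and the log2 fold change of 0.38 ± 0.217 SE (adjusted p = 0.487, edgeR) became 0.06 without it. Spry4 (ENSMUSG00000024427.6) was low throughout, with 2.71, 3.11, 2.11 and 3.25 CPM in the controls and 2.90 and 3.34 CPM in the libraries labelled Foxp1cKO (154 to 256 counts in the controls). Its groups overlapped (log2 fold change 0.16 ± 0.231 SE, adjusted p = 0.806, edgeR).

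Dusp6 (ENSMUSG00000019960.8, chr10:99263231-99267489, plus strand), the ERK phosphatase and a gene whose transcript follows ERK activity closely, reached 16.0, 18.8, 11.4 and 11.6 CPM in controls 1 to 4. The libraries labelled Foxp1cKO held 13.2 and 15.2 CPM. Both labelled mutants lay inside the range of the controls, and the log2 fold change was -0.02 ± 0.231 SE (adjusted p = 0.978, edgeR). The 95% interval ran from -0.57 to 0.52. The sign of this value depended on which library was left out, as described in the closing section.

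Of the PEA3 factors, Etv5 and Etv1 had the highest log2 fold changes of all 10 members, and none of the 3 passed the test. Etv5 (ENSMUSG00000013089.15, chr16:22381309-22439719, minus strand) had 18.2, 40.2, 16.5 and 29.1 CPM in controls 1 to 4, and 46.6 and 33.9 CPM in the libraries labelled Foxp1cKO. This is the gene whose promoter window held the forkhead and ACGTG motifs. The groups overlapped through control 2 alone, and the log2 fold change was 0.63 ± 0.357 SE (95% interval -0.21 to 1.47, adjusted p = 0.489, edgeR). Etv1 (ENSMUSG00000004151.17, chr12:38779380-38870484, plus strand) had 15.5, 44.5, 25.9 and 44.2 CPM in the controls and 44.3 and 52.9 CPM in the libraries labelled Foxp1cKO. Controls 2 and 4 were level with the lower labelled mutant, and the log2 fold change was 0.58 ± 0.394 SE (adjusted p = 0.559, edgeR). Etv4 (ENSMUSG00000017724.14, chr11:101769742-101785371, minus strand) was the scarcest of the 3, with 1.58, 4.86, 1.41 and 2.51 CPM in the controls and 3.10 and 2.94 CPM in the libraries labelled Foxp1cKO. Control 2 was again above both labelled mutants and the other controls were below them (log2 fold change 0.22 ± 0.497 SE, adjusted p = 0.883, edgeR).

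Spry1 and the PEA3 factors varied widely among the controls. The standard deviation of log2 CPM over the 4 controls was 0.11 for Fgfr1, 0.08 for Fgfr2 and 0.32 for Fgfr3. It was 0.23 for Spry2, 0.28 for Spry4 and 0.36 for Dusp6, and it was 0.80 for Etv4, 0.74 for Spry1, 0.73 for Etv1 and 0.60 for Etv5. The median over the 13212 genes with a mean of at least 100 counts was 0.16. Of those genes, 97.7% had a smaller standard deviation than Etv4, 97.1% than Spry1, 96.9% than Etv1 and 94.9% than Etv5, against 35.3% for Fgfr1 and 18.2% for Fgfr2. Control 2 was the highest control for 6 of the 7 feedback genes (Spry1, Spry2, Dusp6, Etv1, Etv4 and Etv5), where it was the highest control for 14.9% of all genes. Spry4 was highest in control 4. This count was made after the values were seen.

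Control 2 is the library that also stood apart in Fgf17. Relative to the mean of the other 3 controls it had 2.65 times the Etv4, 2.39 times the Spry1, 1.89 times the Etv5, 1.56 times the Etv1 and 1.45 times the Dusp6 level. Il17rd, which encodes the membrane inhibitor Sef and is another gene induced by FGF signalling, had 36.6 CPM in control 2 against 12.8 to 22.7 CPM in the other controls and 15.4 and 18.8 CPM in the libraries labelled Foxp1cKO. It was named after its values were seen. Fgfr3 went the other way, and was lowest in control 2 at 0.721 times the mean of the other 3. Whether control 2 held more rostral or medial tissue was not tested.

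**Figure D3:**
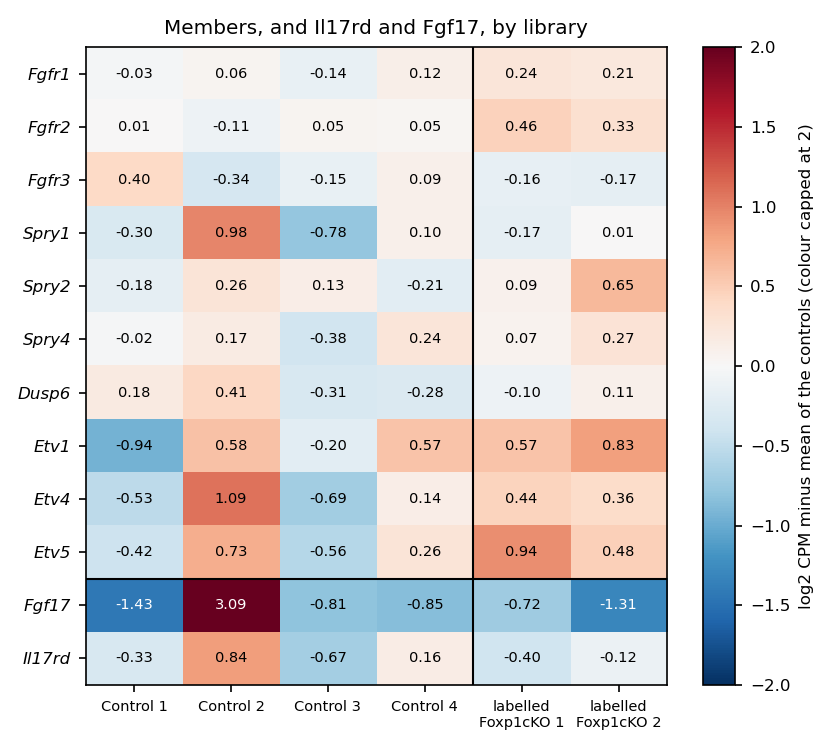
Log2 CPM of the members, and below the line of Fgf17 and Il17rd, in each library minus the mean of the 4 controls, printed in each cell, with colour capped at 2 in either direction. Control 2 is high in Etv4 (1.09), Spry1 (0.98), Etv5 (0.73) and Fgf17 (3.09). The libraries labelled Foxp1cKO 1 and 2 are high in Fgfr2 (0.46 and 0.33), where both lie above every control. They are also above the control mean in Etv5 (0.94 and 0.48), Etv1 (0.57 and 0.83) and Etv4 (0.44 and 0.36), where the groups overlap.

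The values were also computed without control 2, which was chosen for its high level of these genes, so that the higher values of the PEA3 factors in that fit follow from the choice and are a description only. The log2 fold changes became 0.92 ± 0.277 SE for Etv5, 0.77 ± 0.404 SE for Etv1 and 0.71 ± 0.313 SE for Etv4, with adjusted p-values of 0.572, 0.652 and 0.622 (edgeR). DESeq2 gave Etv5 an adjusted p of 0.109 in that fit. No test passed the threshold for these 3 genes. Without both control 2 and control 3, also chosen after seeing the data, Etv5 had a log2 fold change of 0.76 (adjusted p = 0.194, edgeR), and Fgfr2 had 0.37 (adjusted p = 0.153, edgeR).

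Of 113 other genes listed for the FGF, RAS and ERK pathway, 99 were in the table. In edgeR 0 of these 99 passed the threshold in either direction, against 0.152% of all genes, and at an unadjusted p under 0.05 there were 11 higher and 4 lower, against 13.0% of all genes in either direction (1115 higher and 1109 lower of 17068). DESeq2 called 7, all higher in the libraries labelled Foxp1cKO, out of 94 it tested, against 2.06% of all genes called higher. The 99 had a median log2 fold change of 0.06, and both libraries labelled Foxp1cKO lay above all controls for 19 of them (11.5% of all genes) and below all controls for 7 (13.1% of all genes). The genes called by DESeq2 were the inhibitors Spred2, Nf1 and Rasal2, the ETS factor Ets2, and the early response genes Fos, Junb and Ier3.

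Of 18 listed ligands 10 were in the table. None of the 10 passed in edgeR, and none of the 7 that DESeq2 tested passed there. Fgf15, the ligand with the highest level per length, had 3.86, 9.09, 12.7 and 14.5 CPM in controls 1 to 4 and 19.5 and 13.6 CPM in the libraries labelled Foxp1cKO, and the groups overlapped (log2 fold change 0.72 ± 0.460 SE, adjusted p = 0.535, edgeR). The fitted value of Fgf17 was -2.31 and rested on control 2, without which it was 0.00. The 4 FGF homologues that stay inside the cell were not called either, and Fgf13 and Fgf11, the highest of them, had log2 fold changes of -0.06 and 0.19. Of 14 other receptors and co-receptors in the table, Gpc6, a heparan sulphate proteoglycan, had the smallest p. It had 47.2, 37.1, 45.9 and 61.4 CPM in the controls and 78.5 and 67.7 CPM in the libraries labelled Foxp1cKO (log2 fold change 0.61 ± 0.184 SE, adjusted p = 0.289 in edgeR and 0.0647 in DESeq2). The more abundant glypicans Gpc1 and Gpc4 had log2 fold changes of 0.10 and 0.40.

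Between receptor and ERK, Ptpn11, Map2k1 and Map2k2 had unadjusted p-values under 0.05, in different directions. Ptpn11, the phosphatase SHP2 that links receptors to RAS, had 236 to 265 CPM in the controls and 204 and 213 CPM in the libraries labelled Foxp1cKO, both below every control (log2 fold change -0.28 ± 0.079 SE, adjusted p = 0.278, edgeR). Map2k2, the second MEK gene, had a log2 fold change of -0.25, while Map2k1, the first MEK gene, had 0.46 (adjusted p = 0.282 for both, edgeR). The adaptors Grb2 and Crk and the GTPase gene Nras had values of -0.07, -0.04 and -0.11.

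Of 19 other inhibitors in the table, DESeq2 called 3, all higher, against 2.06% of all genes called higher. Spred2, a relative of the Sproutys that blocks RAF activation, had 44.7, 60.1, 51.5 and 59.5 CPM in controls 1 to 4 and 81.4 and 75.0 CPM in the libraries labelled Foxp1cKO. Both labelled mutants were above all controls (log2 fold change 0.54 ± 0.131 SE, adjusted p = 0.242 in edgeR and 0.0234 in DESeq2). Nf1, a GTPase activator that switches RAS off, had 145 to 170 CPM in the controls and 224 and 205 CPM in the others (0.44 ± 0.094 SE, adjusted p = 0.236 in edgeR and 0.00744 in DESeq2). Rasal2, another RAS GTPase activator, had 128 to 145 CPM in the controls and 202 and 176 CPM in the others (0.44 ± 0.089 SE, adjusted p = 0.225 in edgeR and 0.00556 in DESeq2). Spred1 was higher by 0.35 ± 0.129 SE without passing in either tool. Dusp4 and Rasa1, the inhibitors with the highest levels per length, had log2 fold changes of -0.13 and 0.05. The DESeq2 calls of all 3 inhibitors were lost without the library labelled Foxp1cKO 1 (adjusted p = 0.657 for Spred2, 0.508 for Nf1 and 0.457 for Rasal2), and those of Spred2 and Nf1 also without the other (0.205 and 0.0751). Nf1 was also lost without control 1 (0.0917) or control 2 (0.072), and Rasal2 without control 1 (0.0501).

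Of 15 other genes that ERK induces, DESeq2 called 3, all higher, against 2.06% of all genes called higher. They were at low levels, and the log2 fold changes of the 15 ran from -0.37 for Ier2, another early response gene, to 1.42 for Fos. Fos, a component of AP-1, had 0.339, 0.386, 0.494 and 0.521 CPM in the controls and 0.954 and 1.38 CPM in the libraries labelled Foxp1cKO, from 21 to 105 counts (log2 fold change 1.42 ± 0.294 SE, adjusted p = 0.228 in edgeR and 0.0208 in DESeq2). Junb had 1.73 to 2.07 CPM in the controls and 3.14 and 4.43 CPM in the others (1.00 ± 0.212 SE, adjusted p = 0.236 in edgeR and 0.00294 in DESeq2). Ier3 had 1.08 to 2.01 CPM in the controls and 3.95 and 3.28 CPM in the others (1.25 ± 0.269 SE, adjusted p = 0.236 in edgeR and 0.00503 in DESeq2). In all 3, both labelled mutants lay above every control. These genes respond to many signals besides ERK. Of the other genes named from this list, Ccnd1, a cyclin, had a log2 fold change of 0.51 (adjusted p = 0.291, edgeR), Mcl1, which protects against apoptosis, had -0.23 (adjusted p = 0.289, edgeR) and Epha4, an ephrin receptor, had -0.05. Ets2 had 10.4 to 12.6 CPM in the controls and 15.6 and 16.1 CPM in the others (0.50 ± 0.124 SE, adjusted p = 0.242 in edgeR and 0.0111 in DESeq2), and the more abundant ETS factors Gabpa and Elf2 had values of 0.04 and -0.01. DESeq2 lost Fos, Ets2, Junb and Ier3 without the library labelled Foxp1cKO 2 (adjusted p = 0.479, 0.283, 0.255 and 0.106), and all of these but Junb without the other. Fos was also lost without control 1 (0.103) or control 2 (0.14), and Ets2 without control 2 (0.118).

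**Figure D4:**
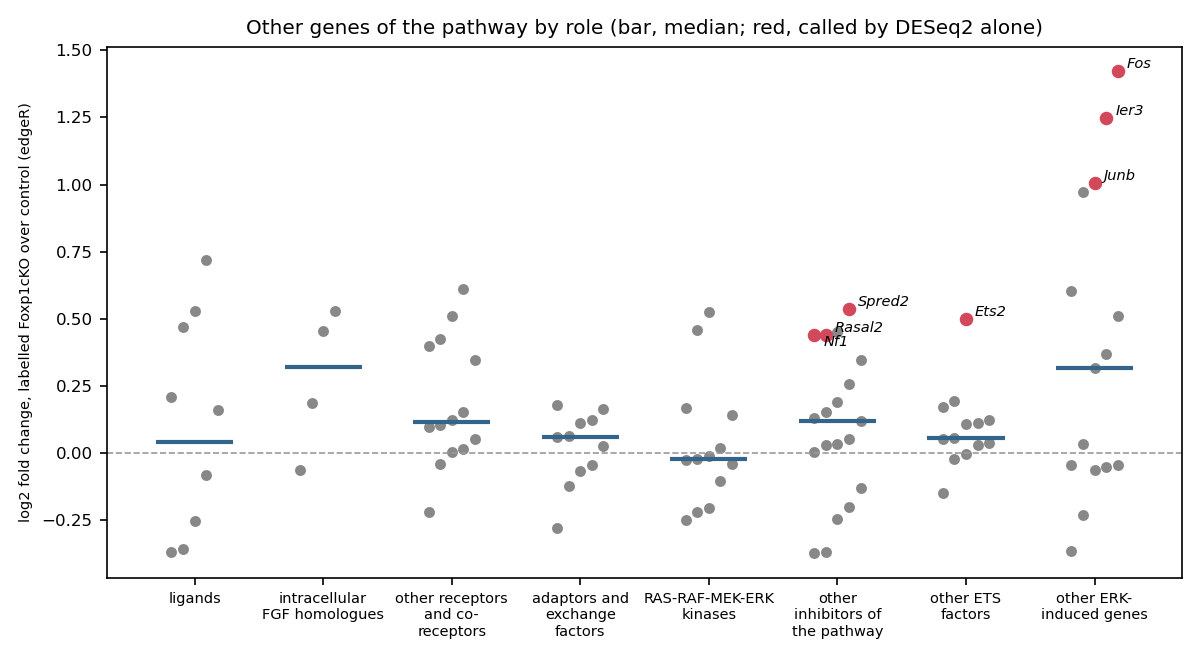
Log2 fold change of the other pathway genes by role, libraries labelled Foxp1cKO over controls, 1 point per gene, with the median of each role as a blue bar. Red points are the 7 genes that DESeq2 called and edgeR did not, and Fgf17 (-2.31) is left out of the points. The medians lie between -0.02 for the kinases and 0.32 for the intracellular homologues and the ERK-induced genes. Of the intracellular homologues, Fgf12, Fgf13 and Fgf14 have models over 500 kb, a length class with a median of 0.24.

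Longer genes tended to be higher in some libraries, and several of the genes above are long. Among genes with a mean of at least 100 counts, the median log2 fold change was -0.11 for 1465 gene models under 5 kb and rose with every step of length to 0.24 for 205 models over 500 kb. Relative to the mean of the controls, the median of the longest genes was 0.31 and 0.24 in the libraries labelled Foxp1cKO 1 and 2, and 0.35 in control 3, while it was -0.12 in control 1, 0.03 in control 2 and -0.20 in control 4. Fgfr2 falls in the longest class by its model in GENCODE, and its RefSeq start would put it in the class of 100 to 200 kb, where the median was 0.08. No fit was made with Fgfr2 in that shorter class. Nf1 and Rasal2, at 242 and 277 kb, are in a class with a median of 0.13. When each length class was centred in the fit, as given with Fgfr2, Fgfr1 was 0.19, Etv5 was 0.59 and Dusp6 was 0.08. The other members under 5 kb, Spry1 and Spry2, had -0.12 and 0.47 in that fit. Among pathway genes over 500 kb, Gpc6 at 1051 kb went from 0.61 to 0.32 in that fit (adjusted p = 0.682, edgeR). Fgf13 at 506 kb went from -0.06 to -0.29, and Nf1 and Rasal2 had 0.30 each.

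**Figure D5:**
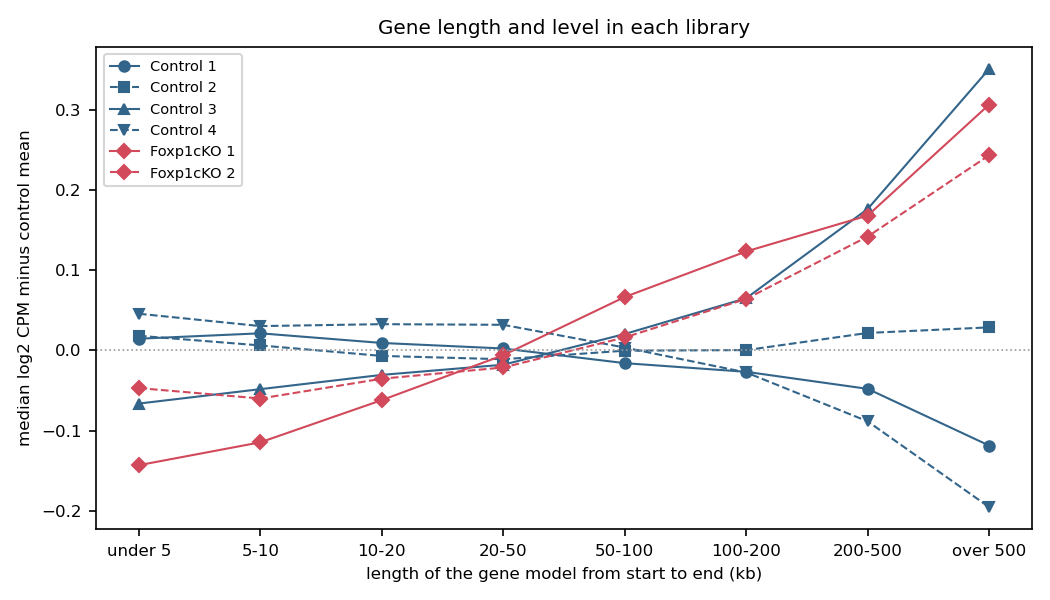
Median log2 CPM minus the mean of the controls (vertical axis) for genes grouped by the length of their model in kb (horizontal axis), with 1 line per library, controls in blue and libraries labelled Foxp1cKO in red. Control 3 and both labelled mutants rise to between 0.24 and 0.35 in genes over 500 kb, and controls 1 and 4 fall to -0.12 and -0.20.

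The genes most like a member over the 6 libraries were taken for the most abundant member of each role, among genes with a mean of at least 100 counts, as Pearson's r of log2 CPM. For Fgfr3 they were 1700034H15Rik (r = 0.98), Smim11 (0.97) and Hbb-bs, a beta globin (0.97). For Spry2 they included Dusp23 and Eno2, a neuronal enolase (0.99 and 0.98), and for Dusp6 they were Nhlrc1, Alg5 and Ppp1r15a (0.98, 0.96 and 0.93). For Etv5 they were Foxk2, Smad4 and Nbeal2 (0.98, 0.97 and 0.97). With 6 points that share scaling and group, such values describe these libraries only. None of the 9 other members was among the 3 genes most like any of these 4. Within the set, Etv4 went with Etv5 (r = 0.91) and with Spry1 (0.90), Etv5 with Fgfr1 (0.87), and Etv1 with Etv5 (0.82), while Fgfr3 ran against Etv1 (-0.73).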

How the data were processed

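The authors made stranded libraries, mapped the read pairs with STAR to the mm10 genome, used HTSeq 0.9.1 to count them per gene, and deposited whole counts of 17068 genes after removing genes with low counts. They also deposited VST values of these counts, which are on a log2 scale. Groups and replicate numbers were taken from the labels, and the litter that the authors modelled was not used here. Counts were tested in R 4.3.3 with edgeR 4.0.16 (quasi-likelihood, TMM, group alone, Benjamini-Hochberg adjustment over all genes, threshold 0.05). DESeq2 1.42.0 and limma 3.58.1 on the VST values were alternatives, as were other scalings, a filter on low counts, each library left out and the replicate number as a block. Log2 CPM for spread and likeness used a prior count of 2. Gene positions and lengths came from GENCODE M21, where 17047 identifiers matched. The 3 tests were checked on simulated counts with known changes. The authors describe the samples as coming from 4 control and 2 Foxp1cKO females. The labels do not say whether libraries share a litter. The p-values thus measure only the spread between these libraries, which may include litter and technical differences. No 2 controls agreed within sampling noise (chi-square per gene at least 25.9). The members and lists were chosen with earlier results of these data known. Named pathway genes were the 2 highest per length in each role and those with an adjusted p under 0.05 in edgeR or DESeq2 or an unadjusted p under 0.05 in edgeR. A few genes that met these rules are left unreported.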

Additional observations from a re-analysis of the deposited data

Results flagged for a closer look

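Of 41 values tested for a library far from the rest of the controls (the members, the named pathway genes and Foxp1), 1 had a gap past Dixon's 95% critical value, which chance alone exceeds in about 1 in 20 groups. Fgf17, a ligand of the rostral midline, had 7.77 CPM in control 2 and 0.339 to 0.521 CPM in the other 3 controls, so that the gap made up nearly the whole range. Control 2 was also the highest control for 6 of the 7 feedback genes, none of which passed that value by itself.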

How the results depend on the processing

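The count of all genes called was 26 in edgeR, 24 to 30 with other scalings, filters, limma or the length classes, and 507 in DESeq2. Leaving out a library gave 2 to 96 genes in edgeR and 206, 203, 1027 and 1451 in DESeq2 without controls 1 to 4, and 178 and 204 without the libraries labelled Foxp1cKO 1 and 2. DESeq2 called 1 member (Fgfr2, log2 fold change 0.39) and 7 pathway genes, and 0 to 2 members and 4, 4, 11, 18, 1 and 1 pathway genes in those same 6 fits. With control 4 left out it gave Fgfr1 0.27 as a second call. Same-numbered libraries correlated at -0.198 and 0.0157, so the numbers were not taken as pairs. The replicate block called 0 of all genes (3027 at an unadjusted p under 0.05) and 0 members, and gave Fgfr2 0.44. The crossed replicate block, chosen after seeing the data, called 1301 genes, 1 member (Fgfr2, 0.44) and 14 pathway genes. In both block fits controls 3 and 4 had no partner, so the group effect came from the libraries numbered 1 and 2 alone. The number of members whose groups do not overlap was 2. With a library left out it was 2 to 6, the 6 being without control 2, which is high in these genes. Fewer libraries separate more easily, and the share over all genes is not given for these settings, so no conclusion is drawn. The median of the members kept its sign throughout, at 0.10 to 0.30. Of the members, 3 changed sign. Dusp6 (-0.02) ran from -0.15 to 0.13 in edgeR with a library left out, being positive without control 1, control 2 or the library labelled Foxp1cKO 1 (DESeq2 0.034, 0.13 and 0.072), and was 0.0033 in limma, 0.078 with length classes centred and 0.043 without controls 2 and 3. Spry1 (-0.23) ran from -0.46 to 0.20, positive without control 2 alone (DESeq2 0.21), and was 0.0057 without controls 2 and 3. Etv4 (0.22) ran from -0.00027 without control 3 to 0.71 without control 2. The cause of these shifts was not tested. For a single value, the smallest two-sided p of an exact permutation test in this design is 0.133. Etv4 had 98 to 302 counts in a library, and Spry4 had 146 to 256.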
